A study of Mus musculus with 12 samples.

Results

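The genes described here are 38 mouse genes of the lysosome, of 21671 genes with a symbol in the deposited table. They encode the soluble hydrolases that break down protein, sugar chains and lipids, proteins of the lysosomal membrane, the growth factor precursor Grn and the transcription factor Tfeb. They were taken by symbol from a list of lysosomal genes. The rule used no measured value, although the list was drawn up with earlier results of these data known, and all 38 symbols were found. RNA-seq was made of CommaDβ cells, a mouse mammary epithelial line that is not transformed and holds a basal-like and a luminal-like population in balance. There were 4 groups of 3 libraries. Scahigh cells were sorted as positive for the surface protein Sca-1 and stand for stem or progenitor cells, and Scalow cells were sorted as negative and stand for differentiated luminal cells, and neither carried a vector. Scahigh-NT cells were Sca-1 positive cells carrying a lentiviral vector from which doxycycline switches on the microRNA miR-34a, left without doxycycline. Scahigh-34a cells carried the same vector and had doxycycline for 24 h. No group had doxycycline without the vector, so the drug and the microRNA cannot be told apart. The genotype tag in the labels names the groups with the vector the other way round from their titles and source names, which were followed here. All libraries came from 1 cell line, and no source says whether those of a group were grown apart, so a p-value here covers the spread between libraries, which may be technical.

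A lysosome is an acidic compartment bounded by a membrane rich in glycosylated proteins such as Lamp1 and Lamp2, and its lumen is kept acid by the vacuolar proton pump (V-ATPase). Most hydrolases are made in the endoplasmic reticulum, tagged with mannose 6-phosphate and delivered through endosomes, and the loss of single ones causes lysosomal storage disease. TFEB and its relatives TFE3 and MITF bind a sequence built around the E-box CACGTG near the start of many lysosomal genes, and TFEB is held in the cytosol when the kinase complex mTORC1 is active on the lysosomal surface. In the mammary gland, lysosomal proteases take part in the breakdown of tissue when lactation ends.

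Mature miR-34a is printed first because it is the molecule that was switched on, with its seed, bases 2 to 8 from the 5′ end, in capitals (RefSeq, GRCm38.p6, chr4:150068473-150068494, plus strand). A seed pairs with the letters CACTGCC, or with ACTGCCA where bases 2 to 7 pair and an A follows, in a 3′ UTR.
mmu-miR-34a-5p: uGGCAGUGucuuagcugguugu

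The E-box was looked for in the RefSeq promoters (GRCm38.p6, 250 bases before to 50 after the gene start), of which 33 of the 38 genes had an entry. CACGTG, which reads the same on both strands, lay in 12 of the 33 promoters (36.4%), against 12.3% of 8412 promoters of tested genes and 8.09% of all 27025. The longer GTCACGTG, searched on both strands and holding the E-box within it, lay in 9 (27.3%), against 5.15% and 2.55%. TCACGTGA, which also holds the E-box and overlaps the former, lay in 5 (15.2%), against 2.47% and 1.12%. These are matches of letters and were not measured as binding sites. The windows below, 26 bases each on the strand of the gene with CACGTG in capitals, show for each of the 9 genes with GTCACGTG 1 match, and for Ctsa both, so that the shared letters can be seen. Lamp1 had 4 E-boxes in its promoter, at 61, 45, 28 and 15 bases before the start, and the match at 28 is shown.
Lamp1, chr8:13159123-13159148, plus strand: tgccgactggCACGTGaccacatcac
Mcoln1, chr8:3500464-3500489, plus strand: gcgccccgctCACGTGaccgcggcgc
Cln3, chr7:126583342-126583367, minus strand: cgggtactgtCACGTGacccccaacc
Ctsa, chr2:164833751-164833776, plus strand: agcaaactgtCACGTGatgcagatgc
Ctsa, chr2:164833768-164833793, plus strand: tgcagatgctCACGTGaccagagcta
Ctsd, chr7:142387910-142387935, minus strand: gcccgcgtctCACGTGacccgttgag
Gla, chrX:134601184-134601209, minus strand: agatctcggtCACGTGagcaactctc
Glb1, chr9:114401020-114401045, plus strand: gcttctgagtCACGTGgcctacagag
Naglu, chr11:101070011-101070036, plus strand: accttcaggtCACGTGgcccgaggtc
Sgsh, chr11:119355524-119355549, minus strand: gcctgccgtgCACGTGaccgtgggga

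Seed sites were looked for in the longest 3′ UTR annotated for each gene in GENCODE vM21 on GRCm38. Which UTR the transcripts of these cells carried was not determined. A site lay in 9 of the 38 UTRs (23.7%), against 2512 of 9850 tested genes with a UTR (25.5%). Those of 6 genes called after induction are shown with the site in capitals, 4 of them genes that rose and 2 genes that fell. Positions are counted from the first base after the stop codon.
Hexa, position 111: gctaatctttCACTGCCtccc
Ctsa, position 1643: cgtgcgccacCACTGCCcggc
Galns, position 457: gtggcatctgCACTGCCccat
Ppt1, position 1449: acaggggggaACTGCCAgcag
Ppt1, position 2090: agaattcaccCACTGCCtgtt
Ctsl, position 4049: agcaagtgcaACTGCCAgtgg
Grn, position 204: cccgtatcaaACTGCCAtttc
The other 3 genes with a site were Ctsb, Gaa and Idua. A match does not show that the microRNA acts on the gene.

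The libraries are numbered 1 to 3 for Scahigh, 4 to 6 for Scalow, 7 to 9 for Scahigh-NT and 10 to 12 for Scahigh-34a, and held 33668289 to 41828930 reads each. Reads of Mir34a itself were 0, 0 and 3 in Scahigh, 0, 4 and 1 in Scalow, 3, 8 and 4 in Scahigh-NT and 744, 632 and 1137 in Scahigh-34a, so the titles match the induction. Libraries 3 and 12 stood apart within their groups. Within groups, pairs of libraries had a chi-square per gene of 45.9 to 118 with either of them and 9.12 to 27.5 with neither, and counts are also given without both. Libraries 1 and 2 differed by another measure, with the lowest RPKM sums over all genes before scaling (206097 and 200705, against 222954 to 260260). Their reads without a symbol were 0.0942% and 0.0922%, against 0.05% to 0.0657%. Counts without library 3 rest on those libraries alone for Scahigh. Of 12 macrophage markers, cells rich in lysosomes, Cd68 alone reached 1 RPKM, and the list summed to 0.95 to 1.75 RPKM in a library. Basal markers (Krt5, Krt14, Trp63, Acta2 and Ly6a) summed to 1202 to 1545 RPKM in Scahigh, 323 to 401 in Scalow, 1444 to 1589 in Scahigh-NT and 468 to 511 in Scahigh-34a. Luminal markers (Krt8, Krt18, Krt19 and Epcam) summed to 742 to 812 RPKM in Scalow and to at most 14.6 in a library of the other groups. Of 8 fibroblast markers Dcn alone reached 1 RPKM, in Scahigh-NT, where the list summed to 2.17 to 2.8 RPKM, against 0.359 to 1.95 in a library of the other groups. The part of these markers in the differences below was not tested. In bulk RNA, fewer cells of a type and less RNA per cell cannot be told apart.

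Values are RPKM, reads scaled for gene length and sequencing depth, brought here to a common scale between libraries. A log2 difference is the difference between group means of log2(RPKM + 0.1), followed by its standard error (SE), and it understates the change of genes near 0. A gene was called higher or lower where limma gave an adjusted p below 0.01 and the log2 difference passed 0.5 in either direction. Of the 38 genes, 35 reached 1 RPKM in at least 3 libraries and were tested among 10586 genes. Ctsk, the collagen-cleaving cathepsin of osteoclasts, lay at 0.0416 to 0.139 RPKM. Ctss, a cathepsin of antigen-presenting cells, had at most 1 read in a library, which says only that no more was detectable at this depth. Idua, the iduronidase of heparan and dermatan sulfate breakdown, lay at 0.266 to 0.604 RPKM. Cln3, Ctso and Manba passed the minimum only through the group in which they were highest, so a difference was built into their entry, and 25 genes reached 1 RPKM in every library.

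Ctsd, Ctsl, Lamp1 and Psap were the most abundant and together made up 65.3% to 76.5% of the summed RPKM of the 38 genes. That sum was 728, 739 and 882 RPKM in Scahigh, 902, 821 and 950 in Scalow, 1174, 1109 and 1186 in Scahigh-NT and 1220, 1279 and 1044 in Scahigh-34a. Without those 4 genes it was 215, 214 and 242 in Scahigh, 227, 213 and 234 in Scalow, 276, 281 and 284 in Scahigh-NT and 398, 413 and 362 in Scahigh-34a. The remaining genes thus summed highest in the 3 induced libraries, next in the 3 libraries with the uninduced vector, and overlapped between the groups without the vector. Of the 35 tested genes, 21 had their highest mean in Scahigh-34a and 18 their lowest in Scalow. The shares of all tested genes with such means were not counted.

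**Figure D1:**
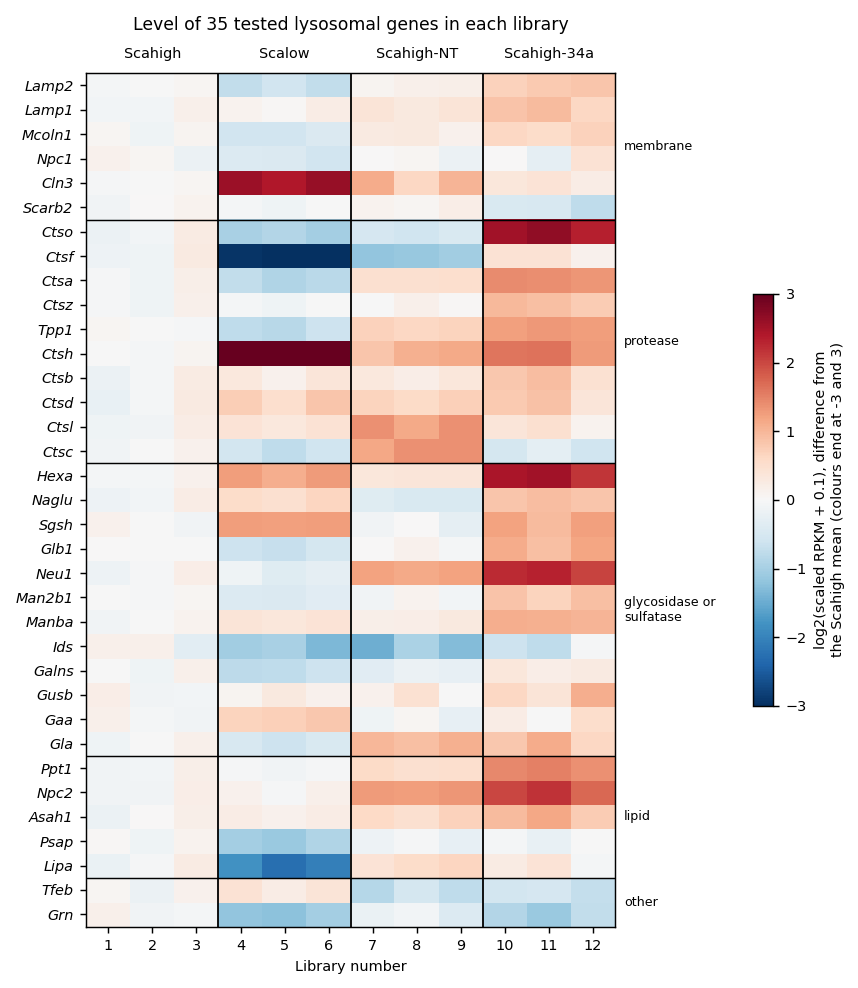
Heat map of the 35 tested lysosomal genes (rows, by class) in the 12 libraries (columns), as the difference of log2(scaled RPKM + 0.1) from the Scahigh mean. Rows such as Hexa, Ctso and Neu1 are red in libraries 10 to 12, Ctsh and Cln3 in libraries 4 to 6, and Ctsl and Ctsc in libraries 7 to 9.

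The first comparison asked how the genes differed after 24 h of induction, in cells that all carried the vector. In Scahigh-34a against Scahigh-NT, 17 of the 35 tested genes were higher and 5 lower, against 18.8% of all tested genes higher and 20.6% lower. Their median log2 difference was 0.51, and that of all tested genes was -0.004. The libraries did not overlap for 22 of the 35 on the higher side and 6 on the lower, against 33.2% and 34.6%. Of the 12 tested glycosidases and sulfatases 9 were higher and 0 lower, of the 10 proteases 5 were higher and 2 lower, of the 6 membrane genes 1 was higher and 2 lower, and of the 5 lipid genes 2 were higher and 0 lower. Grn was lower and Tfeb was not called. With no filter on low values, which takes in all 38 genes, 16 were higher and 5 lower, against 12.8% and 13.2% of 18850 genes. Among the 25 genes at 1 RPKM or more in every library 10 were higher and 4 lower. Without libraries 3 and 12 the counts were 19 and 5. The shares of all tested genes were not counted for that subset or, in any of the comparisons, without those libraries. Over the same comparison 10 of 10 cell cycle genes fell, with a median log2 difference of -3.81, and 4 of the 5 basal markers fell, and the part of either in the lysosomal differences was not tested.

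The second comparison set the sorted populations without a vector against each other. In Scahigh against Scalow 14 of the 35 genes were higher and 7 lower, against 17.9% and 23.6% of all tested genes, and the median was 0.07 against -0.079. The libraries of the groups did not overlap for 16 of the 35 on the higher side and 10 on the lower, against 29.8% and 40.6% of all tested genes. Proteases were 5 higher and 2 lower of 10, glycosidases and sulfatases 4 and 4 of 12, membrane genes 2 and 1 of 6, and lipid genes 2 and 0 of 5, while Grn was higher. With no filter 14 and 7 of all 38 were called, against 13.7% and 16.3%, and without libraries 3 and 12 the counts were 14 and 7. The share of higher among all called genes depended on the scaling, at 43.1% here, 51.9% with upper quartile scaling, 51.6% with scaling over tested genes and 57.3% with RPKM as deposited. The lysosomal genes were then 15 and 6, 15 and 6, and 16 and 6.

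The uninduced vector also went with a difference. In Scahigh-NT against Scahigh 11 of 35 genes were higher and 4 lower, against 14.0% and 8.90% of all tested genes, with a median of 0.22 against 0.091. Without overlap were 18 on the higher and 6 on the lower side, against 38.2% and 22.0%. Here the share of higher among all called genes fell from 61.1% to 44.4%, 45.4% and 44.5% with the same 3 scalings, and the lysosomal counts became 8 and 5, 9 and 5, and 8 and 5. With no filter 10 and 4 of the 38 were called, against 8.97% and 7.33%, and without libraries 3 and 12 the counts were 13 and 3. In Scahigh-34a against Scahigh 22 were higher and 3 lower, against 27.5% and 22.0%, with a median of 0.76 against 0.097. Without overlap were 24 and 4, against 38.4% and 30.0%. With no filter the counts over all 38 were 22 and 3, against 17.6% and 15.6%, and without libraries 3 and 12 they were 22 and 2. The comparisons of Sca-1 positive cells share libraries and are not independent of each other. The vector, its infection and any other difference between the cultures with and without it cannot be told apart.

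**Figure D2:**
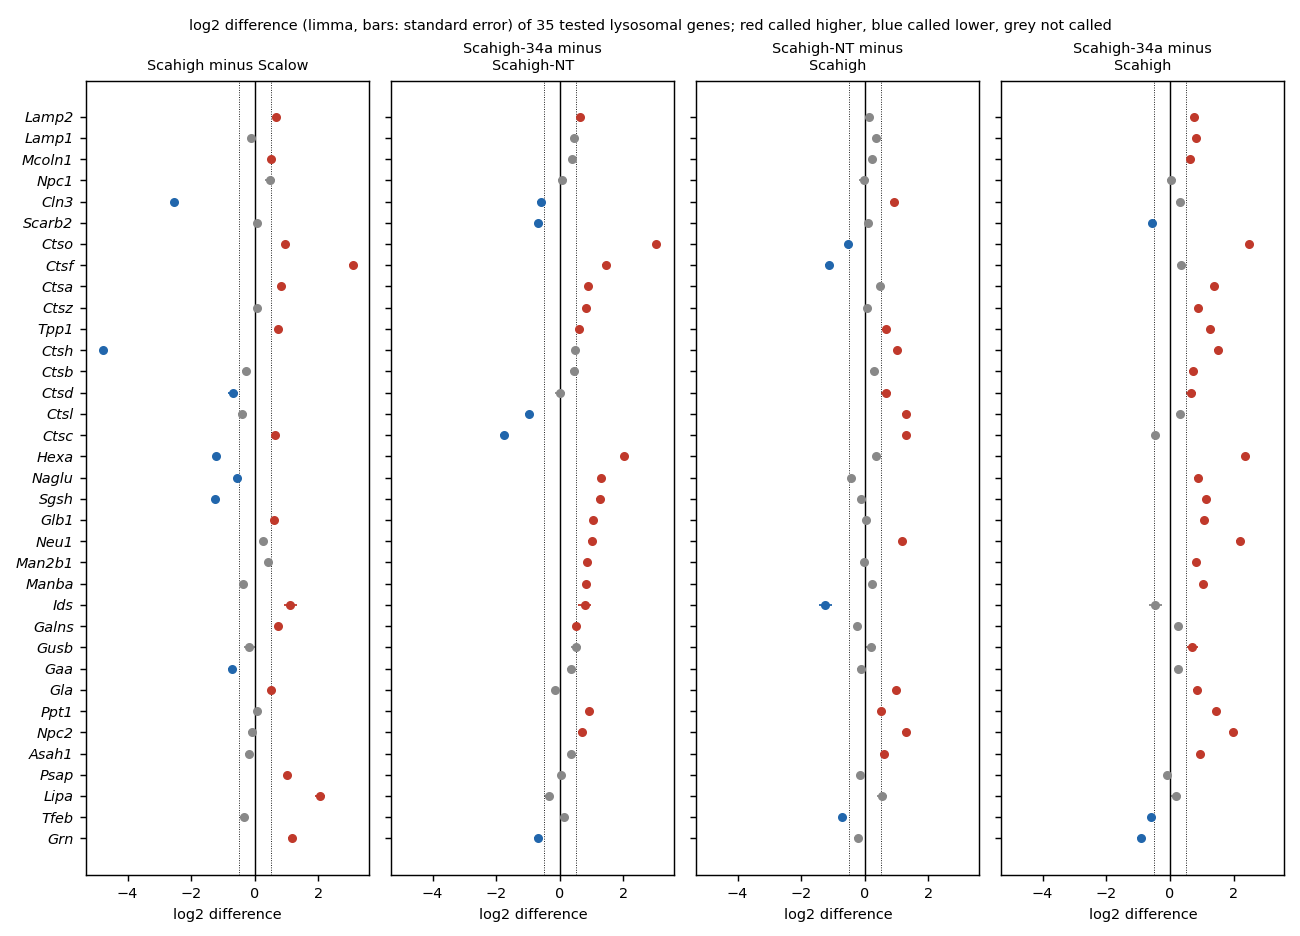
log2 differences (points) with standard errors (bars) of the 35 tested lysosomal genes in 4 comparisons, in the order of the heat map, with dotted lines at -0.5 and 0.5. Red points are genes called higher, blue points called lower and grey points not called, with 17 red and 5 blue for Scahigh-34a minus Scahigh-NT.

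Membrane genes were called in both directions. Lamp1, a main structural protein of the lysosomal membrane, was at 110, 110 and 130 RPKM in Scahigh, 125, 119 and 135 in Scalow, 153, 143 and 151 in Scahigh-NT and 211, 226 and 180 in Scahigh-34a. The induced libraries lay above all others, those of Scahigh-NT above Scahigh, and Scahigh and Scalow overlapped. The log2 difference was 0.46 (SE 0.10, adjusted p = 0.0021) on induction, short of the minimum size, and passed it without library 12 (0.57) and with upper quartile scaling (0.53). It rose by 0.82 (SE 0.10, adjusted p = 2.1e-05) in Scahigh-34a against Scahigh. Lamp2, which besides its structural part takes up proteins in chaperone-mediated autophagy, was at 10.5, 10.8 and 11.3 RPKM in Scahigh, 6.43, 7.27 and 6.51 in Scalow, 11.5, 12 and 12.3 in Scahigh-NT and 17.5, 18.7 and 19.3 in Scahigh-34a. No group overlapped another, and Scalow was lowest. Lamp2 was higher by 0.63 (SE 0.07, adjusted p = 7.7e-06) on induction and by 0.68 (SE 0.07, adjusted p = 3.4e-06) in Scahigh against Scalow.

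Cln3, the membrane protein lost in juvenile Batten disease, was at 0.192, 0.199 and 0.214 RPKM in Scahigh, 1.68, 1.5 and 1.75 in Scalow, 0.552, 0.366 and 0.509 in Scahigh-NT and 0.281, 0.298 and 0.254 in Scahigh-34a. It was high in Scalow and low elsewhere, with no overlap, on 53 to 465 reads a library. Cln3 was tested only through its level in Scalow, so a difference was built into its entry. Scahigh was lower than Scalow by a log2 difference of -2.53 (SE 0.12, adjusted p = 3.3e-09), or -1.14 with a pseudocount of 1. The fall on induction, -0.60 (SE 0.12, adjusted p = 0.001), was not called without library 7 (-0.50) or with a pseudocount of 1 (-0.21). Scarb2, the receptor that carries glucocerebrosidase to the lysosome, had means of 17.6, 16.7, 19.0 and 11.9 RPKM in Scahigh, Scalow, Scahigh-NT and Scahigh-34a. It fell on induction by a log2 difference of -0.68 (SE 0.09, adjusted p = 4.2e-05), and its call against Scahigh (-0.56) was lost without library 12 (-0.46). Mcoln1, the calcium channel of the lysosome, had means of 6.19, 4.28, 7.27 and 9.57 RPKM in the same order. It was higher in Scahigh than in Scalow by 0.52 (SE 0.08, adjusted p = 0.00012), which dropped under the minimum size without library 3 (0.49) or library 5 (0.50). Npc1, which passes cholesterol out of the lysosome, was at 1.21 to 2.53 RPKM over the 12 libraries and was the single tested gene called in no comparison. Its difference of 0.48 (adjusted p = 0.015) in Scahigh against Scalow was called under each other scaling (0.57, 0.57 and 0.63), with only those groups fitted (0.51), without library 11 (0.51) or 12 (0.50), and without libraries 3 and 12 (0.58).

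Among the proteases the changes ran in both directions. Ctso, a cysteine cathepsin, was at 0.916, 0.985 and 1.25 RPKM in Scahigh, 0.478, 0.523 and 0.462 in Scalow, 0.701, 0.655 and 0.726 in Scahigh-NT and 6.44, 7.08 and 5.67 in Scahigh-34a. The induced libraries lay far above the rest, and no group overlapped another. The group mean was 9.22-fold that of Scahigh-NT, with a log2 difference of 3.03 (SE 0.11, adjusted p = 4.2e-10). Ctso was tested only through its level in Scahigh-34a, so a difference was built into its entry. Ctso was also higher in Scahigh than in Scalow by 0.96 (SE 0.11, adjusted p = 1.3e-05), not called with a pseudocount of 1 (0.46), and its difference of -0.52 in Scahigh-NT against Scahigh was not called without library 3 (-0.40) or library 8 (-0.49).

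Ctsf, another cysteine cathepsin, was at 1.35, 1.38 and 1.84 RPKM in Scahigh, 0.108, 0.0902 and 0.0716 in Scalow, 0.611, 0.634 and 0.678 in Scahigh-NT and 2.09, 2.08 and 1.67 in Scahigh-34a. It was nearly silent in Scalow, with as few as 12 reads in a library, and the induced libraries overlapped with those of Scahigh. The log2 difference was 3.09 (SE 0.13, adjusted p = 9.3e-10) in Scahigh against Scalow, 1.21 with a pseudocount of 1. Ctsf was lower in Scahigh-NT than in Scahigh (-1.12, SE 0.13, adjusted p = 2.5e-05) and higher on induction (1.46, SE 0.13, adjusted p = 1.1e-06). Ctsh, a cathepsin with aminopeptidase activity, was at 0.911, 0.887 and 0.979 RPKM in Scahigh, 27.9, 26.1 and 30.0 in Scalow, 1.72, 2.06 and 2.16 in Scahigh-NT and 3.03, 3.05 and 2.39 in Scahigh-34a. The Scalow mean stood 30.2-fold above the Scahigh mean and the 4 groups did not overlap. This was the widest gap of the 35 genes between the sorted populations, at -4.77 (SE 0.11, adjusted p = 8.8e-12). On induction the difference was 0.49 (SE 0.11, adjusted p = 0.002), just under the minimum, and it passed without library 1, 2, 8, 9 or 12 (0.51 to 0.62), with upper quartile scaling (0.55), with RPKM as deposited (0.52) and with limma-voom (0.52).

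Ctsl, a cysteine endopeptidase, was at 116, 118 and 147 RPKM in Scahigh, 167, 158 and 171 in Scalow, 326, 277 and 328 in Scahigh-NT and 163, 176 and 135 in Scahigh-34a. Ctsc, the dipeptidyl peptidase that activates serine proteases of immune cells, was at 3.28, 3.49 and 3.88 RPKM in Scahigh, 2.4, 2.05 and 2.32 in Scalow, 8.06, 9.3 and 9.28 in Scahigh-NT and 2.44, 2.89 and 2.3 in Scahigh-34a. Both peaked in the uninduced vector cells, and after induction Ctsl overlapped with Scahigh and Ctsc lay below it. Ctsl was higher in Scahigh-NT than in Scahigh by 1.30 (SE 0.13, adjusted p = 6.5e-06) and fell on induction (-0.98, SE 0.13, adjusted p = 2.8e-05). For Ctsc the same differences were 1.30 (SE 0.10, adjusted p = 1.2e-06) and -1.77 (SE 0.10, adjusted p = 2.6e-08). In Scahigh-34a against Scahigh neither was called, at 0.32 for Ctsl and -0.47 for Ctsc. Ctsc was called lower there under the other scalings (-0.51, -0.58 and -0.54), with only those groups fitted (-0.50) and without library 1 (-0.51) or 11 (-0.59), and Ctsl was called higher without libraries 3 and 12 (0.55). Between the sorted populations Ctsc was higher in Scahigh by 0.63 (SE 0.10, adjusted p = 0.0002), or 0.48 with a pseudocount of 1, which was not called.

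Ctsa, the serine carboxypeptidase that also protects Neu1 and Glb1 from degradation, was at 8.97, 8.42 and 10.5 RPKM in Scahigh, 5.53, 4.91 and 5.23 in Scalow, 13, 12.9 and 13.1 in Scahigh-NT and 24.7, 24.6 and 23.3 in Scahigh-34a. Tpp1, the tripeptidyl peptidase lost in late infantile Batten disease, was at 7.51, 7.17 and 7.12 RPKM in Scahigh, 4.22, 4.04 and 4.67 in Scalow, 11.8, 11.3 and 11.6 in Scahigh-NT and 17.2, 17.9 and 17.6 in Scahigh-34a. For both genes the levels stood in the order Scalow, Scahigh, Scahigh-NT and Scahigh-34a, with no overlap between any groups. On induction Ctsa rose by 0.89 (SE 0.08, adjusted p = 1.6e-06) and Tpp1 by 0.60 (SE 0.06, adjusted p = 6.8e-06). In Scahigh against Scalow they were higher by 0.82 (SE 0.08, adjusted p = 3.1e-06) and 0.74 (SE 0.06, adjusted p = 8.9e-07).

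Ctsd, the aspartic protease of the lysosome, was at 167, 189 and 237 RPKM in Scahigh, 324, 277 and 348 in Scalow, 312, 293 and 323 in Scahigh-NT and 336, 362 and 250 in Scahigh-34a. It was lower in Scahigh than in every other group, and the other 3 groups overlapped. The difference of Scahigh from Scalow was -0.69 (SE 0.16, adjusted p = 0.0026), that of Scahigh-NT from Scahigh 0.66 (SE 0.16, adjusted p = 0.0053) and that on induction 0.01 (SE 0.16, adjusted p = 0.95). Each of the first pair was not called when single libraries were left out, with adjusted p of 0.016 without library 1, 0.013 without library 2, 0.011 without library 4 and 0.014 without library 6 in Scahigh against Scalow. In Scahigh-NT against Scahigh it was 0.012 to 0.025 without library 1, 2, 7, 8 or 9. The call there was also lost with upper quartile scaling (0.011), with RPKM as deposited (0.012) and with no filter (0.011). The call of Ctsd in Scahigh-34a against Scahigh (0.67, SE 0.16, adjusted p = 0.0025) was lost without library 1, 10 or 11 and with only those groups fitted. Ctsz, a carboxypeptidase, had means of 26.9, 25.7, 28.0 and 49.5 RPKM and rose on induction by 0.82 (SE 0.09, adjusted p = 5e-06), while Ctsb, an abundant cysteine cathepsin, had means of 30.7, 36.9, 37.2 and 51.0 RPKM. Ctsb was called in Scahigh-34a against Scahigh (0.73, SE 0.13, adjusted p = 0.00037) but not on induction (0.44, SE 0.13, adjusted p = 0.012), where it passed without library 12 (0.60, adjusted p = 0.00075) and with upper quartile scaling (0.51).

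**Figure D3:**
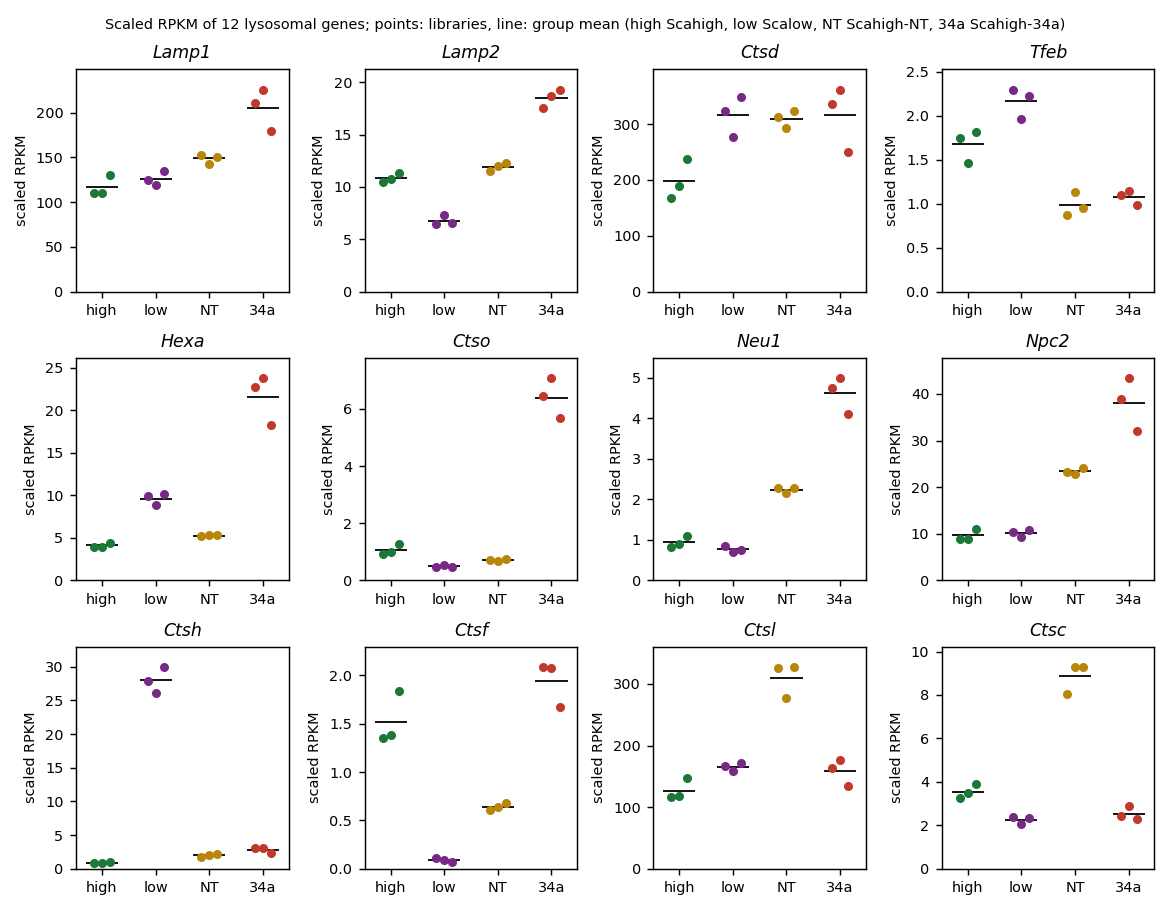
Scaled RPKM of 12 lysosomal genes in each library (points) with the group mean (line), each panel starting at 0. Hexa, Ctso, Neu1 and Npc2 are highest in Scahigh-34a, Ctsh in Scalow, and Ctsl and Ctsc in Scahigh-NT.

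On induction 9 of the 12 tested glycosidases and sulfatases rose, against 18.8% of all tested genes. Among the 9 was Manba, which was tested only through its level in Scahigh-34a. Hexa, the alpha subunit of the hexosaminidase that cleaves GM2 ganglioside, was at 3.93, 3.89 and 4.43 RPKM in Scahigh, 9.88, 8.83 and 10.1 in Scalow, 5.15, 5.27 and 5.31 in Scahigh-NT and 22.7, 23.8 and 18.3 in Scahigh-34a. All groups were apart, with the induced libraries highest and Scalow next. The induced mean was 4.11-fold that of Scahigh-NT (log2 difference 2.01, SE 0.10, adjusted p = 5.1e-09), and Scahigh was lower than Scalow (-1.21, SE 0.10, adjusted p = 4.5e-07). Neu1, the sialidase that removes terminal sialic acid, was at 0.82, 0.903 and 1.08 RPKM in Scahigh, 0.842, 0.701 and 0.748 in Scalow, 2.27, 2.15 and 2.27 in Scahigh-NT and 4.75, 4.99 and 4.11 in Scahigh-34a. It stepped up in the uninduced vector cells and again on induction, and Scahigh and Scalow overlapped. Those steps were 1.18 (SE 0.11, adjusted p = 3.7e-06) and 1.01 (SE 0.11, adjusted p = 5.3e-06). Glb1, the beta-galactosidase whose activity is stained for in senescent cells, was at 1.73, 1.68 and 1.7 RPKM in Scahigh, 1.08, 1.01 and 1.15 in Scalow, 1.73, 1.88 and 1.62 in Scahigh-NT and 3.82, 3.29 and 4.0 in Scahigh-34a. Scahigh and Scahigh-NT overlapped, with Scalow below and the induced libraries above them. Glb1 rose by 1.04 (SE 0.09, adjusted p = 6.6e-07) on induction and was higher in Scahigh than in Scalow by 0.61 (SE 0.09, adjusted p = 6.3e-05), or 0.38 with a pseudocount of 1, which was not called.

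Enzymes of heparan sulfate breakdown were found among the called genes in differing patterns. Sgsh, the heparan sulfamidase, was at 1.24, 1.11 and 1.03 RPKM in Scahigh, 2.8, 2.77 and 2.84 in Scalow, 1.03, 1.13 and 0.922 in Scahigh-NT and 2.74, 2.25 and 2.76 in Scahigh-34a. Naglu, the glucosaminidase of the same pathway, was at 0.644, 0.678 and 0.86 RPKM in Scahigh, 1.1, 1.05 and 1.18 in Scalow, 0.537, 0.501 and 0.495 in Scahigh-NT and 1.36, 1.47 and 1.37 in Scahigh-34a. Both were low in Scahigh and Scahigh-NT and higher in Scalow and in the induced cells. On induction Sgsh rose by 1.25 (SE 0.10, adjusted p = 4.7e-07) and Naglu by 1.30 (SE 0.10, adjusted p = 3e-07). In Scahigh against Scalow the differences were -1.25 (SE 0.10, adjusted p = 4.1e-07) and -0.55 (SE 0.10, adjusted p = 0.00037), and that of Naglu missed the minimum under each other scaling (-0.46, -0.47 and -0.41), with a pseudocount of 1 (-0.29) and without library 1 (-0.46) or library 2 (-0.48). Ids, the iduronate sulfatase, was at 4.57, 4.59 and 3.26 RPKM in Scahigh, 1.95, 2.05 and 1.55 in Scalow, 1.42, 2.07 and 1.6 in Scahigh-NT and 2.64, 2.39 and 4.01 in Scahigh-34a. It was high in Scahigh, low in Scalow and Scahigh-NT and spread widely among the induced libraries. Ids was higher in Scahigh than in Scalow by 1.11 (SE 0.20, adjusted p = 0.00047), lower in Scahigh-NT than in Scahigh (-1.24, SE 0.20, adjusted p = 0.00041) and higher on induction by 0.78 (SE 0.20, adjusted p = 0.0056). That last call was lost without library 7 (adjusted p = 0.028), library 9 (0.017) or library 12 (0.015).

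Gla, the alpha-galactosidase lost in Fabry disease, was at 3.66, 4.0 and 4.51 RPKM in Scahigh, 2.87, 2.58 and 2.93 in Scalow, 8.15, 7.6 and 8.62 in Scahigh-NT and 7.18, 8.81 and 6.27 in Scahigh-34a. Both groups with the vector lay above both groups without it and overlapped with each other. It was higher in Scahigh-NT than in Scahigh by 0.99 (SE 0.12, adjusted p = 3.7e-05), with -0.14 (SE 0.12, adjusted p = 0.32) on induction. Its difference of 0.52 in Scahigh against Scalow was not called without library 3 (0.44) or library 5 (0.47). Man2b1 and Manba, the alpha- and beta-mannosidases, had induced means of 8.35 and 1.5 RPKM against 4.62 and 0.798 in Scahigh-NT, and rose by 0.84 and 0.83 (SE 0.08 for both, adjusted p = 2.3e-06 and 1.4e-06). With a pseudocount of 1 the difference of Manba was 0.48 and not called, and a difference was built into its entry through its level in Scahigh-34a. Galns, a sulfatase of keratan sulfate breakdown, rose by 0.52 (SE 0.09, adjusted p = 0.00019), not called without library 7 (0.48) or library 10 (0.49) or with a pseudocount of 1 (0.41), and was higher in Scahigh than in Scalow by 0.72 (SE 0.09, adjusted p = 1.3e-05). Gaa, the glucosidase of glycogen, had means of 3.49, 5.81, 3.24 and 4.19 RPKM and was lower in Scahigh than in Scalow (-0.72, SE 0.13, adjusted p = 0.00037). Gusb, the glucuronidase, had means of 3.58, 4.03, 4.11 and 5.96 RPKM. It was called in Scahigh-34a against Scahigh alone (0.70, SE 0.17, adjusted p = 0.0026), and not without library 2 (adjusted p = 0.013). That call was also lost with scaling over tested genes (0.012), with only those groups fitted (0.015) and without libraries 3 and 12 (0.016). On induction Gusb was called without library 8 (0.65) or 11 (0.66).

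Of the 5 lipid-handling genes 3 were higher in Scahigh-NT than in Scahigh, against 14.0% of all tested genes. On induction 2 of the 5 were higher, against 18.8% of all tested genes, and both were among those 3. Npc2, the soluble protein that hands cholesterol to Npc1, was at 8.93, 8.89 and 11 RPKM in Scahigh, 10.4, 9.26 and 10.7 in Scalow, 23.2, 22.9 and 24.2 in Scahigh-NT and 38.9, 43.4 and 32.0 in Scahigh-34a. Ppt1, which removes palmitate from proteins, was at 7.94, 8.06 and 9.54 RPKM in Scahigh, 8.21, 7.93 and 8.28 in Scalow, 12.6, 11.8 and 12.1 in Scahigh-NT and 23.3, 24.3 and 22.2 in Scahigh-34a. For both, Scahigh and Scalow overlapped, the uninduced vector cells lay higher and the induced cells higher again. Npc2 was higher by 1.28 (SE 0.12, adjusted p = 3.5e-06) in Scahigh-NT against Scahigh and by 0.69 (SE 0.12, adjusted p = 0.00025) on induction. For Ppt1 these were 0.52 (SE 0.08, adjusted p = 0.00019) and 0.93 (SE 0.08, adjusted p = 6.2e-07), of which the first missed the minimum under each other scaling (0.41), with a pseudocount of 1 (0.48) and without library 1 (0.46), 2 (0.46), 7 (0.49) or 11 (0.49). Lipa, the acid lipase of cholesteryl esters and triglycerides, was at 10.5, 11.8 and 14.5 RPKM in Scahigh, 3.36, 2.44 and 2.84 in Scalow, 16.3, 17.9 and 19.2 in Scahigh-NT and 14.4, 16.1 and 11.7 in Scahigh-34a. It was low in Scalow alone, and Scahigh was higher than Scalow by 2.05 (SE 0.15, adjusted p = 1.7e-07). Its difference in Scahigh-NT against Scahigh, 0.54 (SE 0.15, adjusted p = 0.011), was not called. That difference was called with limma-voom (0.55), with a pseudocount of 1 (0.51) and with only those groups fitted (0.53). The same held without library 3, 4, 5, 11 or 12 (0.51 to 0.67). Psap, the precursor of the saposins that help hydrolases reach sphingolipids, had means of 118, 58.4, 107 and 110 RPKM, and was higher in Scahigh than in Scalow by 1.01 (SE 0.09, adjusted p = 1.5e-06). Asah1, the acid ceramidase, had means of 18.5, 21.0, 27.7 and 35.8 RPKM, and its difference of 0.59 in Scahigh-NT against Scahigh was not called without library 1 (0.49) or under the other scalings (0.48 in each).

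Grn, the precursor of the granulins of the lysosome, was at 25.0, 20.9 and 21.4 RPKM in Scahigh, 9.74, 9.42 and 10.9 in Scalow, 19.6, 21.2 and 16.9 in Scahigh-NT and 12.1, 10.3 and 13.4 in Scahigh-34a. Scahigh and Scahigh-NT overlapped and were high, and the induced cells fell to near the range of Scalow. Grn fell on induction (-0.69, SE 0.12, adjusted p = 0.00026) and was higher in Scahigh than in Scalow by 1.16 (SE 0.12, adjusted p = 3e-06). Tfeb, the transcription factor, was at 1.75, 1.46 and 1.82 RPKM in Scahigh, 2.3, 1.97 and 2.23 in Scalow, 0.877, 1.13 and 0.946 in Scahigh-NT and 1.1, 1.14 and 0.981 in Scahigh-34a. Its transcript was low in both groups with the vector, which overlapped, and lay higher in both without it. It was lower in Scahigh-NT than in Scahigh (-0.71, SE 0.11, adjusted p = 0.00029), or -0.43 with a pseudocount of 1, which was not called, and the difference on induction was 0.12 (SE 0.11, adjusted p = 0.36). The RNA level of Tfeb says nothing of where the protein was in the cell.

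Scahigh against Scalow and Scahigh-34a against Scahigh-NT share no library, so the calls of each gene can be set side by side. Of the 14 genes higher in Scahigh than in Scalow, 8 rose on induction (Lamp2, Ctsa, Ctsf, Ctso, Tpp1, Glb1, Galns and Ids), 2 fell (Ctsc and Grn) and 4 were not called, while of all 1896 tested genes higher in Scahigh 24.8% rose and 21.8% fell. Of the 7 lower in Scahigh, 3 rose (Hexa, Naglu and Sgsh), 1 fell (Cln3) and 3 were not called, against 19.7% and 20.6% of 2499 genes. Of the 14 not called between the sorted populations, 6 rose on induction and 2 fell, against 16.5% and 20.2% of 6191 genes. The direction on induction was that from Scahigh to Scalow for 5 called genes, namely Hexa, Naglu, Sgsh, Ctsc and Grn, and the opposite for 9. Of those 5, Hexa and Naglu ended above every Scalow library. The 9 included Ctso and Cln3, into whose entry a difference was built. Of all tested genes higher in Scahigh 413 fell and 470 rose on induction. Of those lower in Scahigh 493 rose and 515 fell. Either direction was thus common among all genes, and the 5 and 9 are few.

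Calls were counted by sequence as a description. Of the 9 genes with GTCACGTG in the promoter, 4 were higher and 1 lower on induction, against 21.5% and 15.9% of all 433 tested genes that hold it. Of the 21 tested genes with a promoter entry without it 12 were higher and 4 lower, against 19.2% and 20.9% of 7979. In Scahigh-34a against Scahigh the counts were 8 and 0 of 9 with it, against 34.4% and 14.3%, and 11 and 3 of 21 without it, against 27.8% and 22.1%. Of those 8, Ctsd and Naglu lost their calls under some alternatives. In Scahigh against Scalow 4 and 4 of 9 were called with it, against 17.1% and 18.7%. Without it 9 and 2 of 21 were, against 18.1% and 23.1%. In Scahigh-NT against Scahigh 3 and 0 of 9 were called with it, against 16.6% and 5.31%. Without it 6 and 4 of 21 were, against 13.9% and 8.71%. Of the 8 tested genes with a miR-34a site in the UTR, 4 were higher and 2 lower on induction, against 13.6% and 25.6% of all 2512 tested genes with a site. Of the 27 tested genes without one 13 were higher and 3 lower, against 21.0% and 18.7% of 7338.

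Other genes of the organelle were read from lists that did not hold the 38. Of 25 tested other lysosomal hydrolases, 13 were higher and 2 lower on induction, against 18.8% and 20.6% of all tested genes, with a median of 0.50 against -0.004. Pld3, a nuclease of the lysosome, rose by 1.18 (SE 0.09, adjusted p = 3.8e-07), while the phospholipase Pla2g15 (-0.63, SE 0.09, adjusted p = 6.8e-05) and the aspartic protease Ctse (-1.33, SE 0.21, adjusted p = 0.00014) fell. Between the sorted populations 10 were higher in Scahigh and 3 lower, against 17.9% and 23.6% of all tested genes, with the hyaluronidase Hyal1 (2.04, SE 0.09) higher and the GM2 activator Gm2a (-1.02, SE 0.11) and Hyal2 (-0.81, SE 0.10) lower. Of 20 tested other membrane and transport genes, 4 were higher and 3 lower on induction, near the 18.8% and 20.6% of all tested genes. Among them were Ostm1, the partner of a chloride transporter (1.07, SE 0.09), and the lipid transporter Abca2 (1.04, SE 0.17), and on the other side Sidt2, a membrane protein that takes up nucleic acids (-1.34, SE 0.07), and Tmem192 (-0.77, SE 0.10). Against Scalow, 5 of the 20 were higher in Scahigh and 1 lower (all tested genes 17.9% and 23.6%), with Sidt2 at 0.91 (SE 0.07), the amino acid transporter Slc36a1 at 2.06 (SE 0.16) and the phosphatase Tmem55b at -0.65 (SE 0.06).

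The V-ATPase, which acidifies the lumen, was called in 1 direction in the cells with the vector. Of 19 tested subunits, 10 were higher and 0 lower on induction, where 18.8% and 20.6% of all tested genes were. In Scahigh-NT against Scahigh 13 were higher and 0 lower (all tested genes 14.0% and 8.90%), and in Scahigh-34a against Scahigh 16 and 0 (27.5% and 22.0%), with a median of 1.09 against 0.097. Atp6v1a, the catalytic subunit, was at 8.3, 9.68 and 10.5 RPKM in Scahigh, 8.75, 8.2 and 8.37 in Scalow, 16.6, 16.6 and 17.4 in Scahigh-NT and 75.9, 81.5 and 67.0 in Scahigh-34a. The induced libraries stood well above all others, and Scahigh and Scalow overlapped. It rose on induction by 2.14 (SE 0.09, adjusted p = 1.8e-09), and Atp6v0d1, a subunit of the membrane sector, by 0.77 (SE 0.07, adjusted p = 1.8e-06). Set against Scalow, 4 were higher in Scahigh, such as Atp6v0d1 (1.04, SE 0.07) and Tcirg1 (0.95, SE 0.09), and 4 lower, such as Atp6v1c2 (-3.54, SE 0.09) and Atp6v1h (-0.83, SE 0.12), near the 17.9% and 23.6% of all tested genes. Of 18 tested genes of the TFEB family and of mTORC1 at the lysosome, 3 were higher and 0 lower on induction (all tested genes 18.8% and 20.6%), among them Fnip1, a partner of folliculin (0.61, SE 0.09), and Lamtor4, a part of the Ragulator complex (0.89, SE 0.15). Relative to Scalow, 4 were higher in Scahigh, with Tfe3, the relative of Tfeb, at 1.09 (SE 0.13) and folliculin (Flcn) at 0.60 (SE 0.09), and 4 lower, with the phosphoserine-binding adaptor Ywhah at -1.00 (SE 0.07) and the mTORC1 subunit Rptor at -0.88 (SE 0.15). Those shares were near the 17.9% and 23.6% of all tested genes. Where no adjusted p is printed for a gene of these lists it was at most the 0.00029 of Lamtor4.

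**Figure D4:**
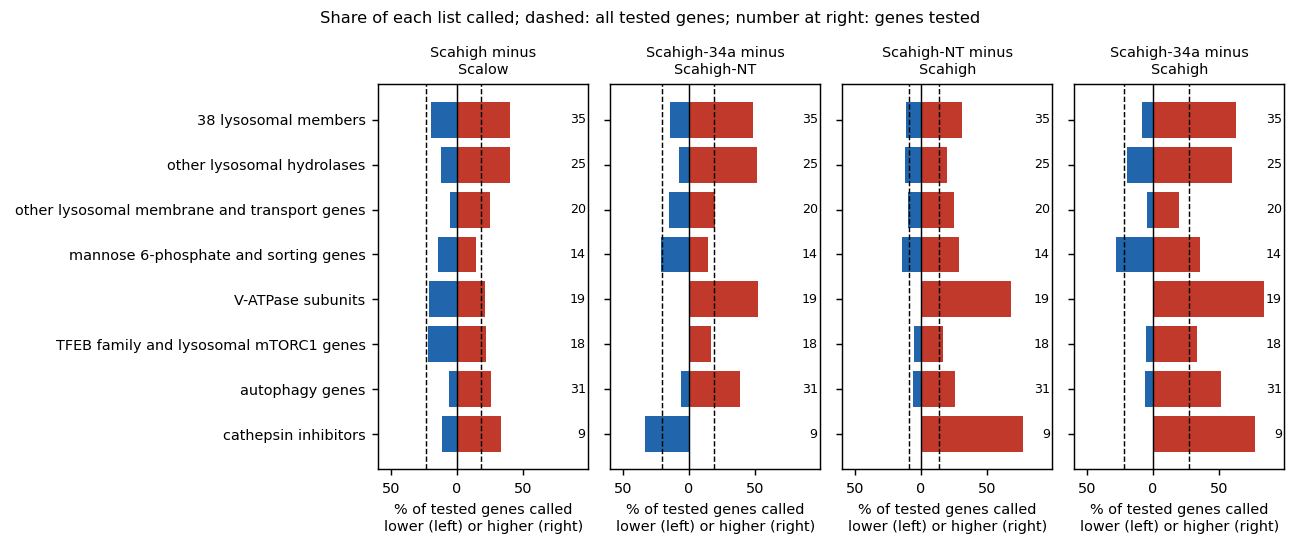
Share of the tested genes of 8 lists called lower (blue, left of 0) or higher (red, right of 0) in 4 comparisons, with the shares of all tested genes as dashed lines and the number of genes tested at the right of each bar. The V-ATPase subunits have bars to the right alone in the 3 comparisons of Sca-1 positive cells, and the mannose 6-phosphate and sorting genes have bars on both sides in all 4.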

How the data were processed

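The deposited table gives the expression of 21853 genes in 12 libraries of sorted CommaDβ cells, prepared with the Illumina TruSeq kit. The values are described as raw reads, but the authors deposited RPKM. Per the submitters' processing notes the tools were TopHat2 2.0.6 and DESeq2, on the mm9 build. Which read counter, annotation and strand setting they used was not given in the sources used here, so reads of overlapping genes cannot be told apart. Deposited columns with fold changes, p-values, group means and marks of selected genes were not used. The mean columns served only, with the RPKM steps of 4971 genes, to recover the reads of each gene. Of 196893 values above 0, 99.9% were whole reads within 0.1 read. The depth, read counts, chi-square and limma-voom fit given here rest on these recovered reads. Rows without a symbol (182) were left out of scaling and tests, and their share of a library's reads was at most 0.0942%. Libraries differed by more than sampling noise within each group, and the columns carry a group but no replicate number.

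A count test had been planned for counts. Since RPKM are no counts, a limma model (version 3.58.1, R 4.3.3) with a trend was fitted on log2(scaled RPKM + 0.1) for the 10586 genes that reached 1 RPKM in 3 or more libraries, with 4 group means, 8 residual degrees of freedom and Benjamini-Hochberg adjustment. Scaling was an unweighted trimmed mean of M values over all genes (30% of M and 5% of A values trimmed). The fit was tested on simulated reads with far fewer changed genes than were called here and no library that stood apart. That test therefore gives no error rate for these data. Genes and lists were chosen with earlier results of these data known. Values per library are given for Lamp1, Lamp2, Ctsd, Tfeb, the 6 called genes with the greatest difference in each comparison and those called in 3 or more, and from other lists the 2 called genes with the smallest p in each direction of the first comparisons are named, of which some are not reported here. Python 3.11.15 with pandas 2.3.3, numpy 2.4.6 and matplotlib 3.10.9 was used. Alternatives covered scaling, pseudocount, filter, threshold, libraries and limma-voom on recovered reads. Scaling over tested genes was added after seeing the data.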

Additional observations from a re-analysis of the deposited data

How the results depend on the processing

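Over the 4 comparisons 83 calls were made among the 38 genes. Of these, 22 were lost under at least 1 of 22 alternatives that still tested the gene, and 0 turned direction. Calls of genes that an alternative did not test, as with 1 RPKM required in every library, were not counted as lost. With a pseudocount of 1, in place of 0.1, the genes higher in Scahigh than in Scalow were 9 (14) and those lower in Scahigh-NT than in Scahigh 2 (4). With 1 RPKM required in every library, which leaves fewer genes, those lower in Scahigh than in Scalow were 3 (7), those higher on induction 10 (17) and those lower in Scahigh-NT 1 (4). At an adjusted p below 0.05 with no minimum size, 17 (11) were higher in Scahigh-NT. Leaving out each library gave 12 to 15 higher and 5 to 8 lower in Scahigh against Scalow, 15 to 19 and 4 to 5 on induction, 8 to 13 and 3 to 5 in Scahigh-NT against Scahigh, and 20 to 22 and 3 to 4 in Scahigh-34a against Scahigh. For the settings of these counts the shares of all tested genes were not counted, so the changes may not be particular to the lysosomal genes. The other counts stayed within 1.5 times. Another scaling moved the median of all genes in Scahigh against Scalow from -0.079 to as much as 0.077 and in Scahigh-NT against Scahigh from 0.091 to as low as -0.018, and in Scahigh-34a against Scahigh from 0.097 to as low as -0.019. The median of the lysosomal genes was 0.07 to 0.23, 0.12 to 0.22 and 0.65 to 0.76 there, and 0.50 to 0.58 on induction. No paired analysis was possible because the columns carry no replicate number. Groups of 3 limit the precision, and depth limits Ctss, Ctsk and Cln3.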

Other observations

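Autophagy genes, whose products bring cell contents to the lysosome, were also counted. Of 31 tested, 12 were higher and 2 lower on induction, against 18.8% and 20.6% of all tested genes, with a median of 0.33 against -0.004. In Scahigh against Scalow 8 were higher and 2 lower (all tested genes 17.9% and 23.6%), with a median of 0.18 against -0.079, and in Scahigh-34a against Scahigh 16 and 2 (27.5% and 22.0%). Gabarapl2, which coats autophagosomes, was at 18.2, 16.2 and 17.1 RPKM in Scahigh, 18.6, 19.6 and 20.2 in Scalow, 32.0, 30.9 and 31.2 in Scahigh-NT and 54.4, 49.9 and 57.8 in Scahigh-34a. Its levels stepped up in the uninduced vector cells and again on induction, by 0.87 (SE 0.07, adjusted p = 1.9e-06) and 0.78 (SE 0.07, adjusted p = 1.8e-06). The cargo receptor Nbr1 rose on induction by 1.08 (SE 0.10, adjusted p = 2e-06), while the protease Atg4b (-0.97, SE 0.08, adjusted p = 4.2e-07) and the kinase Ulk1, which starts autophagy (-0.72, SE 0.17, adjusted p = 0.0023), fell. Between the sorted populations Tecpr1 (1.24, SE 0.08) and the membrane protein Atg9a (1.28, SE 0.09) were higher in Scahigh, and the receptor Optn (-1.64, SE 0.09) and Atg101 (-1.06, SE 0.11) lower, with adjusted p of at most 6e-06.

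Inhibitors of cathepsins and other proteases were called in the cells with the vector in 1 direction against Scahigh. Of 9 tested, 7 were higher and 0 lower in Scahigh-NT, against 14.0% and 8.90% of all tested genes, and 0 were higher and 3 lower on induction, against 18.8% and 20.6%. The counts in Scahigh-34a against Scahigh were 7 and 0, against 27.5% and 22.0%. Slpi, a secreted protease inhibitor, was at 69.0, 58.2 and 71.8 RPKM in Scahigh, 91.4, 76.9 and 85.6 in Scalow, 517, 443 and 436 in Scahigh-NT and 116, 126 and 125 in Scahigh-34a. The uninduced vector libraries stood far above the others, as for Ctsl and Ctsc among the proteases. Slpi was higher in Scahigh-NT than in Scahigh by 2.81 (SE 0.11, adjusted p = 4.5e-09) and fell on induction (-1.93, SE 0.11, adjusted p = 1.7e-08), and the stefin Stfa3 fell as well (-1.92, SE 0.24, adjusted p = 2e-05). In Scahigh against Scalow Serpinb6b (2.02, SE 0.19) and Serpinb9 (1.45, SE 0.16) were higher and the cystatin Cst6 (-3.27, SE 0.14) lower. Cst6 passed the minimum of 1 RPKM only through Scalow, where it was high, so a difference was built into its entry. Of 14 genes of mannose 6-phosphate tagging and sorting, 2 were higher and 3 lower on induction, near the 18.8% and 20.6% of all tested genes. Sorl1, a sorting receptor, rose by 1.44 (SE 0.14, adjusted p = 3.3e-06) and Vps29, a part of retromer, by 0.58 (SE 0.12, adjusted p = 0.0013), while Nagpa, which uncovers the mannose 6-phosphate tag, fell (-1.49, SE 0.07, adjusted p = 3.4e-09), as did the cargo receptor Lman1 (-0.84, SE 0.07, adjusted p = 1e-06). Relative to Scalow, Gga2 (0.66, SE 0.16) and Sorl1 (0.56, SE 0.14) were higher and the receptor Sort1 (-3.02, SE 0.10) and Gga3 (-0.98, SE 0.10) lower, and Sort1, like Cst6, was tested only through its level in Scalow. In all 4 comparisons these lists share libraries with the results on the 38 genes.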
